A study of Pavo cristatus and Gallus gallus and Meleagris gallopavo with 54 samples.

Results

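Solute carriers are the membrane proteins that move amino acids, sugars, carboxylates, nucleotides, metals and inorganic ions into cells and between their compartments. Most members of family 25 sit in the mitochondrial membranes and pass phosphate, nucleotides and metabolites. Most other families work at the plasma membrane or in the membranes of vesicles. Cultured fibroblasts depend on them for the uptake of amino acids and the release of lactate, and several respond to nutrient supply.

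Genes whose symbol begins with SLC, a family number, A and a member number were taken from the CAGE tables of chicken, quail, duck and zebra finch, except SLC7A11 and SLC2A1. The rule found 146 genes in all, of which 52 were in all 4 tables, 35 in 3, 26 in 2 and 33 in 1. There were 96 of 8168 genes in chicken, 101 of 8331 in quail, 94 of 7706 in duck and 107 of 8769 in zebra finch. Each gene was followed by its transcription start site (TSS) peak of highest mean level. SLC9A3R1, SLC9A3R2, SLC4A1AP and SLC2A4RG match the symbol rule but name other proteins and not carriers.

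CAGE captures and counts the capped 5′ end of transcripts, 1 tag per transcript, so that its level, scaled to the library total and written TPM, does not depend on gene length. Cells came from the trunks of incubated embryos after head, limbs, skin and inner organs had been cut away, and RNA was taken at passage 5. In chicken, quail and duck each of 3 embryos was grown in DMEM/F12 (F12) and in DMEM high glucose, both with FBS, which gave 6 libraries per species. Chicken had 2 female embryos and 1 male, quail 2 females and 1 male, and duck 1 female and 2 males. Zebra finch had 3 females and 1 male, all in DMEM high glucose. The labels name no added gene or drug. One sex of each species thus rested on 1 embryo, and sex and embryo cannot be told apart. An n counts cultures. P values measure the spread between these cultures, of which 2 came from each embryo except in zebra finch.

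The 22 libraries held 7006061 to 12055369 tags, and 1 tag was worth 0.0830 to 0.143 TPM. Every peak of the tables reached 10 TPM in at least 1 library, so a gene without a row may still be expressed. Fibroblast markers summed to 13369 to 89860 TPM per library, with 9 to 12 of the 12 listed genes in the tables. Markers of macrophages, skeletal muscle, endothelium, epithelium, nerve and blood had no row in chicken, whereas 3 of 6 cartilage markers summed to 50.4 to 105 TPM there. The 7 of 9 macrophage markers in the quail table summed to between 9.86 and 15.3 TPM in its 3 F12 cultures and to 192, 311 and 1080 TPM in its 3 high glucose cultures, and its 3 cartilage markers to 7.80 to 530 TPM. In zebra finch 5 of 7 muscle markers summed to 2.12 to 315 TPM. RNA-seq of 1 culture per sex and species gave a second readout, in fragments scaled to gene length and library total (FPKM). Its quail cultures were in F12 and those of chicken, duck and zebra finch in high glucose. An RNA-seq difference between quail and the other species therefore cannot be told apart from one of medium. CAGE means of chicken, quail and duck pool both media, while zebra finch had high glucose only. A difference of such means from zebra finch cannot be told apart from one of medium. The sex labels of the zebra finch RNA-seq libraries go against those of the CAGE libraries from the same cultures, so these were used only as a mean.

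A median member stood at 29.5 TPM in chicken, 27.8 in quail, 25.9 in duck and 22.1 in zebra finch, against 33.3, 32.3, 31.7 and 30.03 TPM for all genes of these tables. Levels were uneven. Between 6 members (duck) and 13 (quail) reached 100 TPM, while 36 in chicken, 36 in quail, 37 in duck and 51 in zebra finch lay under 20 TPM. The 5 highest members held 30.5% of the summed member level in chicken, 30.1% in quail, 28.8% in duck and 32.7% in zebra finch.

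Among amino acid transporters with a CAGE row, SLC38A2 had the highest mean level in all 4 species. It is a sodium-coupled transporter of small neutral amino acids and ranked second among members in chicken and quail and first in duck and zebra finch. It ranged from 298 to 435 TPM in chicken, from 170 to 555 TPM in quail, from 265 to 464 TPM in duck and from 587 to 969.5 TPM in zebra finch (lowest and highest library). Its percentile among all genes ran only from 95.3 to 97.8, the narrowest range of the 52 members found in all 4 tables. RNA-seq gave another order, with SLC38A10 above SLC38A2 in chicken, quail (F12 cultures) and zebra finch. The amino acid transporter SLC7A5 also stood above SLC38A2 by RNA-seq in chicken and quail. In duck SLC38A2 was among the highest members by both readouts. SLC38A1, a relative with similar substrates, averaged 104 TPM in quail, 143 in duck and 40.5 in zebra finch. SLC7A5, the light chain of the large neutral amino acid transporter, averaged 295 TPM ± 138 (SD, n = 6) in quail, 53.97 ± 23.98 (n = 6) in duck and 194 ± 114 (n = 4) in zebra finch. Its partner chain SLC3A2 had a row only in zebra finch, at 116 TPM ± 5.73 (SD, n = 4). The RNA-seq data of the other species hold no SLC3A2 symbol either, so annotation and expression cannot be told apart there. Chicken had no SLC7A5 or SLC38A1 row, although RNA-seq gave them 46.6 and 32.8 FPKM there. Missing rows of this kind were common among members, as 20 of the 50 members without a chicken row had at least 1 FPKM, 24 of 45 in quail, 21 of 52 in duck and 19 of 39 in zebra finch.

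Mitochondrial carriers, taken here as all of family 25, were the largest class in chicken and quail. Their 26 genes made up 34.4% of the summed member level in chicken, and their 24 genes 29.6% in quail. Amino acid and peptide transporters were the largest class in duck (15 genes, 26.05%) and zebra finch (18 genes, 32.2%), where mitochondrial carriers took 22.6% and 24.7%. These shares move with the symbols an annotation gives, since SLC25A6 had no row in duck. SLC25A3, which brings phosphate into mitochondria, was the highest member in chicken (298 to 531 TPM) and quail (304 to 698 TPM) and the third highest in duck (181 to 245 TPM) and zebra finch (184 to 225 TPM). SLC25A5 and SLC25A6 encode adenine nucleotide translocases, which exchange ADP for ATP across the inner membrane. SLC25A6 averaged 256 TPM in chicken, 332 in quail and 218 in zebra finch. SLC25A5 reached 190 to 247 TPM in chicken, 119 to 186 in quail and 113 to 142 in duck, but 9.55 to 13.5 TPM in zebra finch.

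Lactate and pyruvate carriers also differed in CAGE level between species. SLC16A3, a monocarboxylate transporter of glycolytic cells, averaged 209 TPM ± 51.5 (SD, n = 6) in chicken and 255 ± 167 (n = 6) in quail, against 39.6 ± 2.93 (n = 6) in duck and 70.4 ± 21.5 (n = 4) in zebra finch. SLC16A1, which moves the same substrates with high affinity, averaged 128 TPM in chicken, 151 in quail, 21.9 in duck and 37.97 in zebra finch. RNA-seq ranked both among the 5 highest members in chicken and quail, with SLC16A3 at 155 and 168 FPKM. SLC16A3 had 12.2 FPKM in duck and 35.1 in zebra finch. Only the quail RNA-seq cultures were in F12. SLC16A1 had 26.7 FPKM in duck and 27.998 in zebra finch, ranks 12 and 13 among members.

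**Figure D1:**
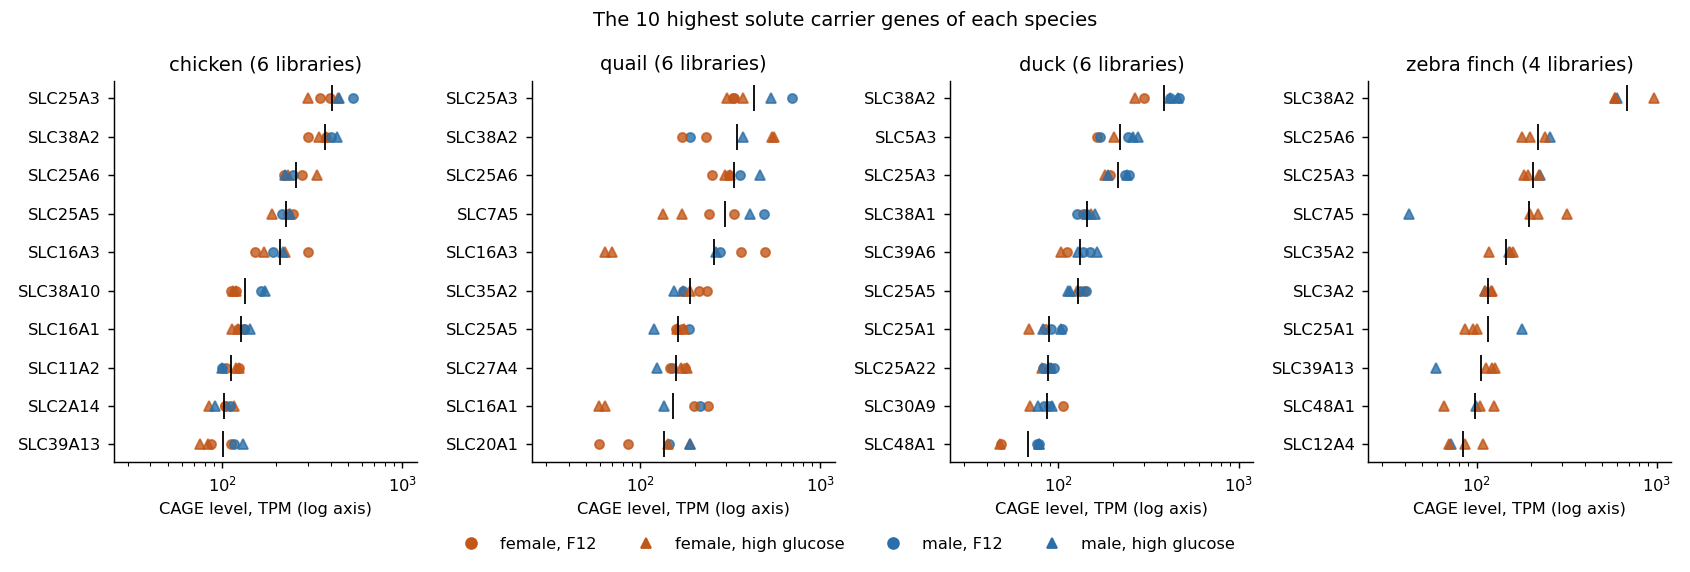
Levels of the 10 highest members of each species in TPM on a log axis; points are libraries, coloured by sex and shaped by medium, and black ticks are means. SLC38A2 and SLC25A3 are among the 3 highest in every panel, and SLC16A3 and SLC16A1 spread most in quail, where the 2 female high glucose cultures lie at 63.4 to 70.0 and 58.8 to 63.6 TPM.

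Zinc transporters held 12.6% of the summed member level in chicken, 8.66% in quail, 11.99% in duck and 10.5% in zebra finch. SLC39A13, a zinc importer needed for connective tissue in humans and mice, lay within the 20 highest members of each species, at 101 TPM in chicken, 72.6 in quail, 66.4 in duck and 105 in zebra finch. SLC39A6, another zinc importer, was at rank 5 in duck at 103 to 164 TPM and averaged 34.1 TPM in zebra finch. SLC39A1 had rows in chicken (60.3 TPM) and zebra finch (80.5 TPM).

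Among ion carriers SLC12A4, a potassium-chloride cotransporter, was the highest in all 4 species, with means of 61.3, 105, 59.9 and 84.3 TPM in chicken, quail, duck and zebra finch. Its chicken peak lay 14860 bases upstream of the annotated gene start, and the other 3 at the start. SLC4A7, a sodium bicarbonate cotransporter that defends cell pH, averaged 44.0, 72.3, 43.8 and 33.9 TPM in the same order. The sodium-phosphate cotransporter SLC20A1 averaged 77.7 TPM in chicken, 135 in quail, 36.5 in duck and 23.05 in zebra finch, and its relative SLC20A2 50.2, 43.1 and 59.4 TPM in the first 3. The magnesium carrier SLC41A2 averaged 76.2 TPM in quail, 41.2 in duck and 69.8 in zebra finch, and SLC41A3 had a row only in duck, at 64.2 TPM.

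SLC35A2, which carries UDP-galactose into the Golgi apparatus, averaged 190 TPM in quail and 146 in zebra finch, and SLC35A4 41.9 TPM in chicken. The fatty acid transport protein SLC27A4 averaged 80.9 TPM in chicken, 158 in quail, 38.2 in duck and 44.0 in zebra finch. The heme transporter SLC48A1 averaged 31.99, 63.3, 67.5 and 98.6 TPM in the same order. Among sugar carriers SLC2A14, of the facilitated glucose transporter family, had a row only in chicken (102 TPM). The RNA-seq data of the other species hold no SLC2A14 symbol either, so annotation and expression cannot be told apart there. SLC6A15, a neutral amino acid transporter, averaged 33.2 TPM in chicken and 60.1 in zebra finch. The partner proteins SLC9A3R2 and SLC4A1AP averaged at most 38.2 TPM in any species.

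For SLC5A3 and SLC6A19 the peak level and RNA-seq stood far apart. SLC5A3, a sodium-coupled carrier of myo-inositol, was the second highest member in duck at 163 to 275 TPM and had no row in the other 3 species. In human the gene shares its first exon with MRPS6, a mitochondrial ribosomal protein gene. A MRPS6 row was found in the 3 other species, at 148 TPM in chicken, 139 in quail and 233 in zebra finch, and none in duck. RNA-seq gave SLC5A3 6.70 FPKM in duck, 3.90 in quail and 1.25 in chicken. SLC6A19, a neutral amino acid transporter of kidney and intestine, had 17.8 to 51.6 TPM in quail from a peak 548 bases upstream of its annotated start, whereas RNA-seq listed it at 0.0106 and 0 FPKM. Of the members at 20 TPM or more it was the only one under 1 FPKM in quail (1 of 65), and there were none among 60 in chicken, 57 in duck and 56 in zebra finch.

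Levels of shared members ran broadly in parallel between species. Across genes, Spearman's rho of mean log2(TPM + 1) was 0.74 for chicken and quail (75 genes), 0.63 for chicken and duck (66), 0.58 for chicken and zebra finch (80), 0.72 for quail and duck (71), 0.64 for quail and zebra finch (78) and 0.59 for duck and zebra finch (73). Genes are not independent replicates, and the tables were scaled separately, so these values are descriptions. Between CAGE and RNA-seq of 1 species rho was 0.73 across 96 members in chicken, 0.75 across 101 in quail, 0.55 across 94 in duck and 0.72 across 107 in zebra finch. Of the 10 highest members by CAGE, RNA-seq kept 7 among its own 10 highest in chicken, 6 in quail, 5 in duck and 5 in zebra finch.

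The members whose rank differed most were compared as percentiles within each species' own table, with both media pooled except in zebra finch. SLC25A5 stood at percentile 92.4 in chicken, 89.0 in quail, 85.4 in duck and 18 in zebra finch. The mitochondrial glutamate carrier SLC25A22 was also lowest in zebra finch, with 80.6, 82.3, 78.5 and 22.8 in the same species order. RNA-seq gave SLC25A5 6.30 FPKM in zebra finch against 43.02 to 78.7 FPKM in the other 3 species. SLC7A1, which takes up arginine and lysine, stood at percentile 61.8 in chicken and 47.2 in quail, against 5.06 in duck and 8.60 in zebra finch. SLC16A1 was lowest in duck, at 36.7, against 86.0 in chicken and 88.2 in quail. By RNA-seq it stood at 90.2 in duck, above 88.1 in zebra finch. The nucleoside transporter SLC29A1 (48.7, 64.65, 44.5 and 18.1), the choline transporter SLC44A1 (62.1, 72.8, 62.5 and 26.8) and SLC20A1 (76.9, 86.5, 54.9 and 41.1) were lowest in zebra finch. By RNA-seq SLC20A1 was not, with 79.6 in zebra finch against 72.6 in quail (F12 cultures) and 74.4 in duck. SLC35A1, which carries CMP-sialic acid into the Golgi apparatus, went the other way, with 16.9 in chicken, 18.7 in quail, 46.4 in duck and 62.0 in zebra finch.

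**Figure D2:**
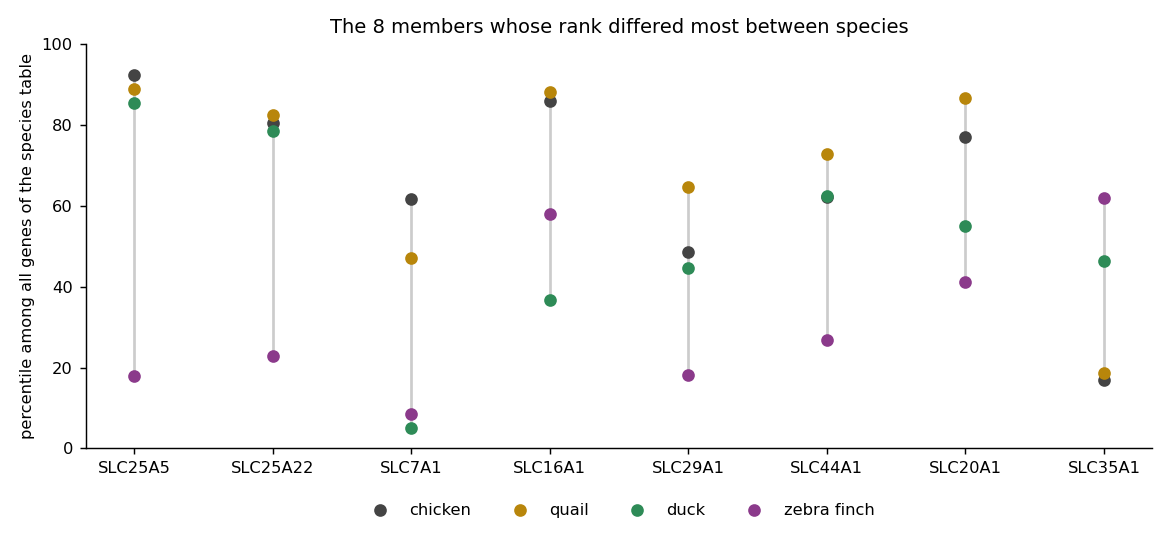
Percentile of the mean TPM among all genes of each species' table, for the 8 members found in all 4 tables with the widest range; each point is 1 species. SLC25A5 drops from 85.4 to 92.4 in chicken, quail and duck to 18 in zebra finch, and SLC35A1 runs the opposite way.

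Male and female fibroblasts were compared within each species by limma on log2(TPM + 1), male minus female, with p values adjusted by Benjamini and Hochberg over all peaks of the table. In chicken 1 of 96 members passed an adjusted p of 0.05 as higher in male and 1 as higher in female, where 1.47% and 1.22% of all genes did. In duck 3 of 94 members were higher in male and none in female, against 3.11% and 1.27% of all genes. No member passed in quail (0.012% of all genes higher in male, 0.132% in female) or zebra finch (0% and 0.308%). These shares of members are close to the shares of all genes, and a count of 0 does not show that nothing differed. The edgeR quasi-likelihood test on the recovered tags also gave no adjusted call in quail and zebra finch. Members at its unadjusted p under 0.05 numbered 12 and 7 in quail and 4 and 10 in zebra finch. The edgeR share of all genes at this cutoff is not given here, so these counts cannot be set against it. The median male minus female difference over members was 0.01 in chicken, 0.10 in quail, 0.13 in duck and -0.09 in zebra finch, and over all genes 0.00, 0.11, 0.13 and 0.01.

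With limma and no adjustment, p was under 0.05 for 11 chicken members higher in male and 5 higher in female (7.76% and 6.19% of all genes). In quail these were 14 and 7 (7.8% and 3.89%), in duck 14 and 3 (15.2% and 4%) and in zebra finch 4 and 10 (3.76% and 4.33%). Members whose male and female libraries did not overlap numbered 20 higher in male and 12 higher in female in chicken (12.8% and 12.2% of all genes), 19 and 10 in quail (16.5% and 7%), 21 and 4 in duck (22.9% and 7.32%) and 21 and 31 in zebra finch (28.1% and 26.7%). By point values, zinc carriers higher in male numbered 8 of 12 in chicken, 5 of 11 in quail, 9 of 11 in duck and 6 of 14 in zebra finch, and ion carriers 1 of 12, 5 of 15, 6 of 8 and 4 of 12. For all genes these were 4134 of 8168, 5161 of 8331, 5276 of 7706 and 4494 of 8769. No carrier of either class passed limma's adjusted threshold, and at an unadjusted p under 0.05 there were 2, 4, 5 and 2 zinc and 2, 1, 2 and 2 ion carriers.

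SLC31A1 encodes the high-affinity copper importer of the plasma membrane, and its duck peak lies on chromosome 18 at 1831708 to 1832100 (minus strand, promoter, assembly ZJU1.0). In duck its level was 23.3 and 29.1 TPM in the 2 female cultures and 66.3, 59.6, 59.8 and 64.9 TPM in the 4 male cultures. All male cultures lay above both female ones, by a log2 of 1.23 ± 0.14 (SE) or 2.35-fold (limma, adjusted p = 0.00319). In chicken, quail and zebra finch the sexes overlapped for SLC31A1 and the log2 difference was -0.16, 0.09 and -0.12, with adjusted p of 0.742, 0.899 and 0.951.

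SLC48A1, the heme transporter, was at 47.8 and 47.7 TPM in duck females and at 77.6, 77.9, 75.7 and 78.0 TPM in duck males. The 4 male cultures lay close together and above both female ones, by a log2 of 0.68 ± 0.11 (SE; limma, adjusted p = 0.0148). In quail the groups stood apart in the opposite direction, with 74.8, 74.1, 74.2 and 73.3 TPM in females and 36.9 and 46.6 TPM in males (log2 -0.82 ± 0.17, limma adjusted p = 0.122). In chicken and zebra finch the difference was -0.06 and 0.06. SLC38A2 in duck was at 299 and 265 TPM in females and at 464, 459.5, 416 and 414 TPM in males. Its 4 male cultures were all higher, by a log2 of 0.64 ± 0.12 (SE; limma, adjusted p = 0.0251), while in quail and zebra finch the sexes overlapped. In chicken both male cultures were also above all 4 female ones, by 0.26 ± 0.13 (SE; limma, adjusted p = 0.423).

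SLC38A10, an amino acid transporter family member, lies on chicken chromosome 18 at 9223726 to 9223944 (plus strand, promoter, galGal6). Chicken females had 112, 120, 119 and 115 TPM and males 165 and 173 TPM, with no overlap and a log2 of 0.53 ± 0.10 (SE; limma, adjusted p = 0.0389). SLC25A10, the mitochondrial dicarboxylate carrier, lies on the same chromosome at 9892722 to 9892790 (plus strand). It had 16.2, 11.8, 13.5 and 15.4 TPM in chicken females and 6.16 and 6.27 TPM in males, a log2 of -1.07 ± 0.19 (SE; limma, adjusted p = 0.0301). Only the female cultures reached the 10 TPM needed for a row, so SLC25A10 entered the chicken table through the sex where it was higher. In the other 3 species neither gene passed the test. In zebra finch the 1 male stood apart the opposite way for both, at 23.8 TPM of SLC25A10 against 17.7 to 19.3 TPM and at 30.6 TPM of SLC38A10 against 47.9 to 76.9 TPM.

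In zebra finch 5 of 18 amino acid and peptide carriers and 0 of 2 carboxylate carriers were higher in the single male by their point values, against 43 of 107 members and 4494 of 8769 genes. SLC38A1 was highest in the male, at 63.2 TPM against 18.8, 47.8 and 32.2 TPM. The next 3 genes are given in detail after their values were seen. SLC7A5 was at 42.3 TPM in the male and at 198, 318 and 219 TPM in the 3 females, a log2 of -2.48 ± 0.36 (SE; limma, adjusted p = 0.157). SLC16A3 was at 38.5 TPM against 85.1, 78.4 and 79.6 TPM (-1.05 ± 0.25, adjusted p = 0.441), and SLC16A1 at 13.2 TPM against 41.2, 28.4 and 69.1 TPM (-1.64 ± 0.53, adjusted p = 0.558). The male lay below every female for all 3 genes and no difference passed limma's threshold. The summed muscle markers were also lowest in the male, at 2.12 TPM against 134, 22.9 and 315 TPM. So were those of cartilage (25.996 against 125, 64.8 and 40.9 TPM, 3 of 6 in the table) and of nerve and glia (5.53 against 17.3, 8.52 and 24.9 TPM, 2 of 6 in the table). Macrophage markers (21.7 against 15.6, 121 and 131 TPM, 3 of 9 in the table) and fibroblast markers (13662 against 19696, 13369 and 18906 TPM) were not lowest in the male. The part of these cells in the values was not tested.

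All 5 genes kept their direction in RNA-seq of 1 female and 1 male culture from the same set, which has no replicate. FPKM in female and male were 96.5 and 108 for SLC38A10 and 2.36 and 1.34 for SLC25A10 in chicken. In duck they were 16.6 and 22.2 for SLC31A1, 14.4 and 19.8 for SLC48A1, and 33.8 and 44.0 for SLC38A2.

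With the embryo as a random block, both chicken calls were lost (adjusted p = 0.0692 for SLC38A10 and 0.0543 for SLC25A10), the 3 duck calls stayed, and quail gained 3. These were SLC22A16 (log2 1.70, adjusted p = 0.0325 by limma), SLC44A1 (1.40, 0.0400) and SLC48A1 (-0.82, 0.0495). SLC22A16, a carnitine transporter, was named here after its values were seen. Their SE fell with the block, to 0.24, 0.22 and 0.14 from 0.30, 0.26 and 0.17 without it. The block fit held no term for medium, so for these genes it was not a stricter test. With medium as a covariate and no block their adjusted p was 0.0933, 0.114 and 0.124 (limma). With 1 value per embryo, and so 3 values a species, limma called no member. The duck libraries as a whole leaned to males, with a median of 0.13 over all genes that TMM scaling moved to 0.00, and the 3 duck calls held under TMM scaling with log2 differences of 1.10, 0.55 and 0.50.

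**Figure D3:**
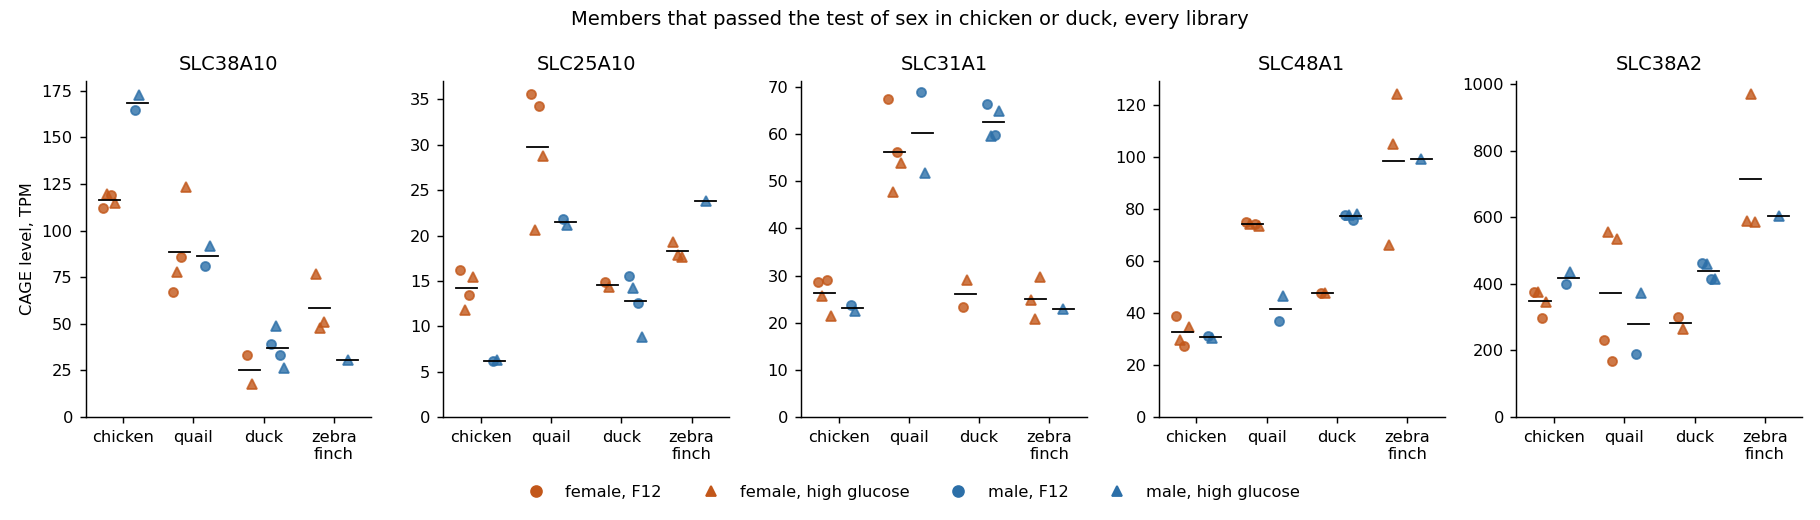
TPM of the 5 members that passed the test of sex in chicken or duck, for every library of the 4 species; colour gives the sex, shape the medium and black lines the means. Duck males lie above duck females for SLC31A1, SLC48A1 and SLC38A2, chicken males above for SLC38A10 and below for SLC25A10, and SLC48A1 is higher in quail females at 73.3 to 74.8 TPM.

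Males carry 2 Z chromosomes and females 1. Of the members 6 lay on the Z chromosome in chicken, 7 in quail, 8 in duck and 7 in zebra finch. The level was higher in male for 5 of 6 in chicken, 6 of 7 in quail, 7 of 8 in duck and 5 of 7 in zebra finch, with median log2 differences of 0.48, 0.52, 0.55 and 0.31. For all Z genes the medians were 0.53, 0.65, 0.65 and 0.70, and 88.6%, 88.5%, 91.1% and 82.1% were higher in male. Members outside the Z chromosome had medians of 0.01, 0.09, 0.12 and -0.09. In duck SLC24A2, SLC25A51 and SLC38A9 reached the 10 TPM needed for a row only in male cultures. SLC24A2 in quail and SLC49A3 in zebra finch reached it only in female cultures. This rule thus favoured the direction of these members. With a mean of at least 10 TPM, 4 of 5 Z members were higher in male in chicken, 6 of 6 in quail, 3 of 4 in duck and 5 of 6 in zebra finch. In RNA-seq 6 of 6 Z members were higher in the male library in chicken, 5 of 7 in quail and 5 of 8 in duck, against 50 of 90, 49 of 94 and 38 of 86 other members. None of the Z members passed the adjusted threshold in any species, where 22.5% of all Z genes did in chicken, 29.7% in duck and 0% in quail and zebra finch.

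SLC30A5, which loads zinc into the secretory pathway, was higher in male in all 4 species, by a log2 of 0.36 ± 0.11, 0.52 ± 0.20, 0.86 ± 0.21 and 1.09 ± 0.34 (SE) in chicken, quail, duck and zebra finch. Chicken females had 53.1, 53.9, 59.3 and 54.7 TPM and males 68.7 and 73.9 TPM. Duck females had 39.6 and 22.6 TPM and males 57.6, 56.7, 53.8 and 52.2 TPM. The sexes did not overlap in chicken, quail, duck or zebra finch, and limma's adjusted p was 0.159, 0.379, 0.0740 and 0.537. The duck value of SLC30A5 was 0.47 without the female high glucose culture and 1.25 without the female F12 culture. SLC44A1, a choline transporter, gave 0.60 ± 0.16 in chicken, 1.40 ± 0.26 in quail and 0.58 ± 0.17 in duck, with adjusted p of 0.114, 0.104 and 0.110 (limma). Quail males had 90.2 and 137 TPM and females 41.5, 48.8, 47.7 and 30.9 TPM, so that the sexes did not overlap. In zebra finch it was -0.19 ± 0.45.

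SLC38A9 is a lysosomal amino acid transporter that signals arginine to the mTORC1 kinase in mammals. By point values it was higher in male by 0.63 in chicken, 1.00 in quail, 0.16 in duck and 0.80 in zebra finch. In duck the sexes overlapped for SLC38A9, and in the other species they did not. SLC25A51, the mitochondrial NAD carrier, gave 0.37, 0.83, 0.53 and 0.31 in the same order. Its duck value was 0.19 without the female high glucose culture and 0.86 without the female F12 culture. SLC25A46, an outer membrane protein of mitochondria, gave 0.60 in chicken, 0.01 in quail, 0.08 in duck and 0.27 in zebra finch, and the quail and duck values turned negative under TMM scaling. SLC12A2, the sodium-potassium-chloride cotransporter, gave -0.14 ± 0.16 in chicken, 0.13 ± 0.25 in quail, 0.73 ± 0.21 in duck and 1.00 ± 0.28 in zebra finch. The zebra finch male had 80.1 TPM of SLC12A2 and the 3 females 34.9, 43.8 and 40.3 TPM. SLC24A2, a calcium exchanger of neurons, was on Z in the quail and duck tables, at 6.30 to 15.9 and 2.57 to 13.9 TPM, with differences of -0.54 ± 0.39 and 1.20 ± 0.44. It reached 10 TPM only in female cultures in quail and only in the male culture at 13.9 TPM in duck. In both species the sex with the higher level is thus the one that gave the gene its row. SLC49A3 was lower in male, not beyond its error, in duck (-0.10 ± 0.15) and zebra finch (-0.43 ± 1.27).

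**Figure D4:**
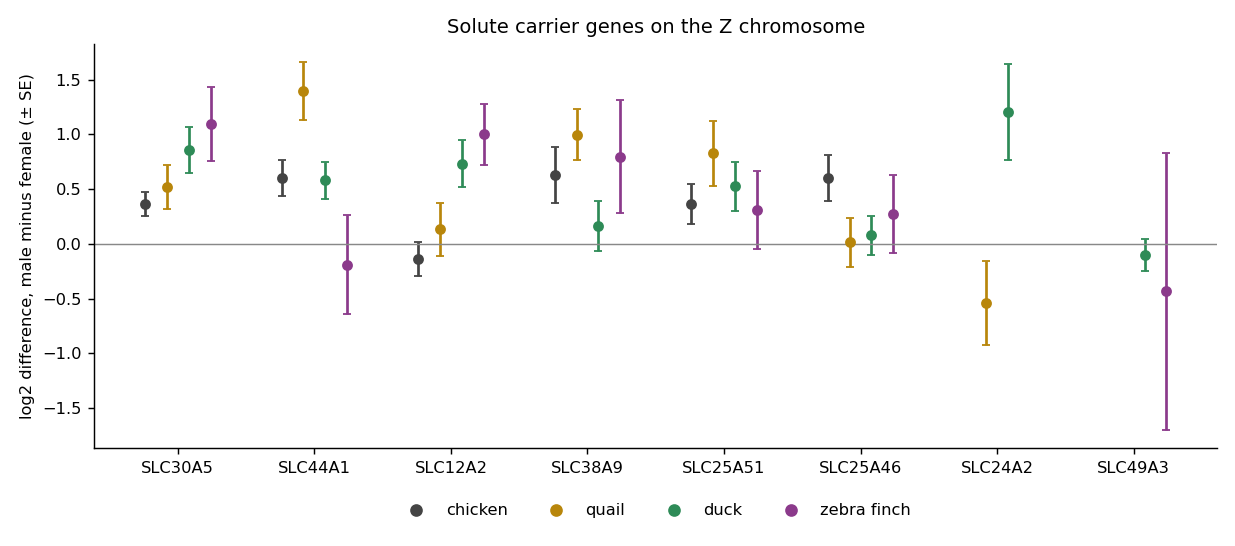
Male minus female log2 difference (± SE) of every Z chromosome member in each species that has it; points above 0 are higher in male. SLC30A5 lies above 0 in all 4 species, and SLC44A1 is highest in quail at 1.40 and below 0 in zebra finch.

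Medium was compared between high glucose and F12 cultures of the same embryos in chicken, quail and duck. The limma differences and p values given for medium do not pair the cultures of an embryo, except where the embryo block is named. No member passed limma's adjusted threshold in any of the 3 species. All genes passed at 0% in each direction in chicken, at 0.072% (high glucose) and 0.012% (F12) in quail, and at 0.013% in each direction in duck. With the embryo as a block no member passed either, and edgeR on the quail tags called none. At an unadjusted p under 0.05 limma gave 1 member higher in high glucose and 1 in F12 in chicken, 10 and 5 in quail (edgeR 9 and 5), and 0 and 3 in duck. By limma 2.83% and 0.833% of all genes did so in chicken, 7.6% and 3.14% in quail, and 0.999% and 1.26% in duck. The edgeR share of all quail genes is not given here. Median differences over members were 0.02, -0.01 and -0.06, against 0.03, 0.05 and -0.06 for all genes.

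The largest values were in quail. SLC38A2 rose in each quail embryo from F12 to high glucose by its point value, from 231 to 555 TPM, from 188 to 372 TPM and from 170 to 536 TPM. All 3 high glucose cultures lay above all 3 F12 cultures, with a log2 of 1.30 ± 0.22 (SE; limma, adjusted p = 0.0901). The same gene gave 0.11 ± 0.15 in chicken and -0.07 ± 0.25 in duck, with overlapping media. SLC40A1, the iron exporter ferroportin that macrophages express strongly, named here after its values were seen, went from 10.6 to 37.8, from 7.35 to 60.2 and from 14.5 to 36.6 TPM in the 3 quail embryos (log2 1.97 ± 0.30, limma adjusted p = 0.0853). The summed macrophage markers moved the same way, from 9.86 to 15.3 TPM in F12 to 192 to 1080 TPM in high glucose. Their order differed, as female embryo 3 had 1080 TPM of markers and 36.6 TPM of SLC40A1, and the male 311 and 60.2 TPM. The part of these markers in the quail values of SLC40A1 and of SLC38A2, which rose in the same cultures, was not tested. In chicken SLC40A1 also rose in each embryo, from 6.46 to 11.9, from 5.82 to 9.21 and from 4.32 to 5.21 TPM. The media overlapped there, and only the high glucose culture at 11.9 TPM reached the 10 TPM needed for a row. Of all chicken genes 22.6% rose in every embryo. In bulk cultures, fewer cells of a type and less RNA per cell cannot be told apart.

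The monocarboxylate transporters had the opposite direction in quail. SLC16A3 went from 494 to 70.0 TPM in female embryo 1, from 364 to 63.4 TPM in female embryo 3 and from 277 to 262 TPM in male embryo 2. Media did not overlap, but the 2 female embryos carried the difference (log2 -1.79 ± 0.53, limma adjusted p = 0.280). The 3 of 6 cartilage markers in the table moved the same way, from 530 to 58.6, from 300.2 to 7.80 and from 304 to 248 TPM in the same order, and their part in this value and in that of SLC16A1 was not tested. SLC16A1 went from 237 to 58.8, from 199 to 63.6 and from 215 to 136 TPM in the same order, a log2 of -1.43 ± 0.32 (limma, adjusted p = 0.158). Without the male high glucose library both passed, at -2.45 (adjusted p = 0.0463) and -1.80 (adjusted p = 0.0442). In duck SLC16A1 was lower in high glucose in all 3 embryos too, at 25.5 TPM ± 1.63 in F12 and 18.4 ± 0.914 in high glucose (SD, n = 3), a log2 of -0.45 ± 0.14 with an adjusted p of 1.00. In chicken the media overlapped for both genes, with differences of -0.04 and -0.02. SLC7A5 in quail was lower in high glucose in each embryo, from 241 to 134, from 331 to 171 and from 487 to 407 TPM, and the media overlapped (log2 -0.68 ± 0.44).

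**Figure D5:**
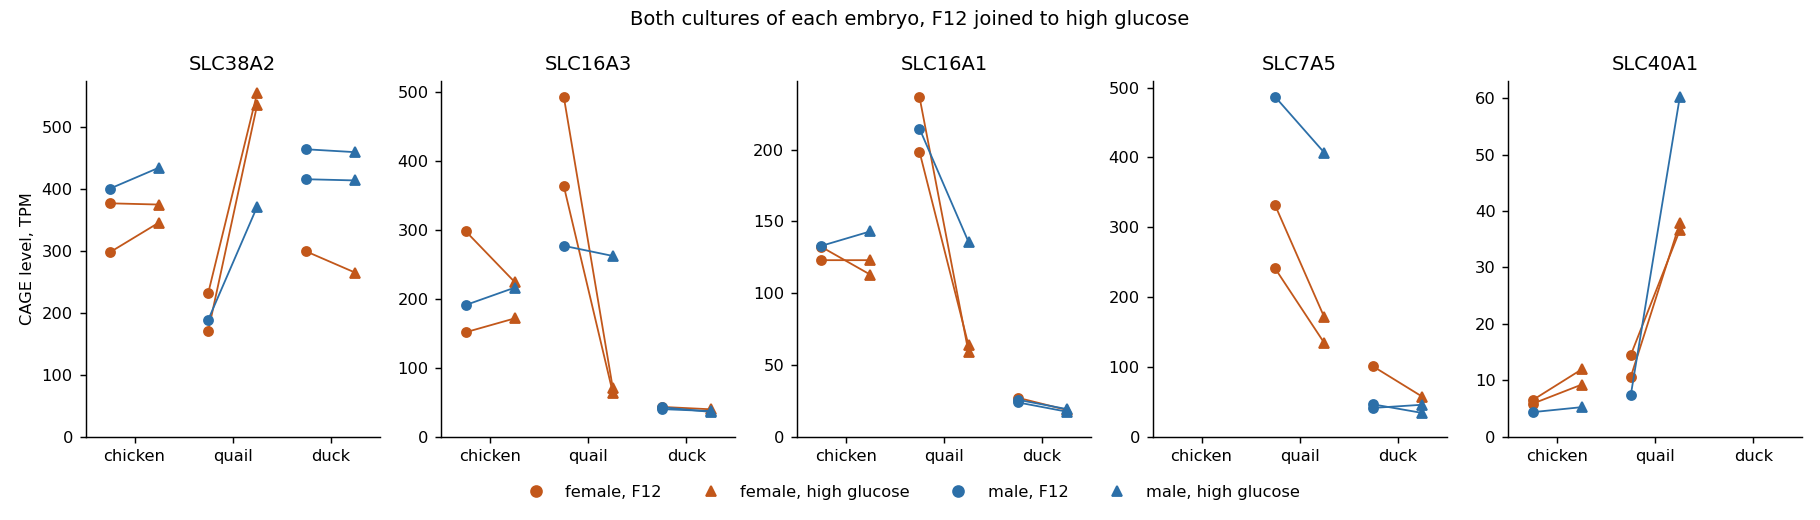
TPM of 5 members in the 2 cultures of each embryo of chicken, quail and duck, F12 (circle) joined to high glucose (triangle) and coloured by sex; a species without points has no row for that gene. Only in quail do the lines run steeply, up for SLC38A2 and SLC40A1 and down in the 2 female embryos for SLC16A3 and SLC16A1.

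Members that moved one way in all 3 embryos numbered 14 (high glucose) and 16 (F12) of 96 in chicken, 22 and 22 of 101 in quail, and 15 and 27 of 94 in duck. For all genes the shares were 22.6% and 12% in chicken, 24% and 14.6% in quail, and 11.8% and 21.9% in duck. Media did not overlap for 3 members higher in high glucose and 4 in F12 in chicken (6.53% and 2.89% of all genes), 12 and 11 in quail (11.3% and 5.5%), and 5 and 6 in duck (2.36% and 5.23%). Among the chicken members was the zinc importer SLC39A1, at 92.9, 65.3 and 74.6 TPM in F12 and 51.7, 34.4 and 43.2 TPM in high glucose (log2 -0.84 ± 0.19, limma adjusted p = 1.00).

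Carriers under other symbols were examined from a list of 17, which holds the mitochondrial pyruvate carrier subunits MPC1 and MPC2, sideroflexins and others. Chicken held 12 of them, and quail, duck and zebra finch 10 each. None passed limma's adjusted threshold by sex or by medium. At an unadjusted p under 0.05 there were 0, 1, 1 and 2 of them by sex in chicken, quail, duck and zebra finch and 1, 3 and 0 by medium in the first 3. For all genes these were 1140 of 8168, 974 of 8331, 1479 of 7706 and 710 of 8769 by sex. By medium they were 299 of 8168, 895 of 8331 and 174 of 7706.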

How the data were processed

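Embryonic fibroblasts of chicken, quail, duck and zebra finch were used. Turkey, peafowl and emu tables carry no gene symbols and were not used here. The authors aligned CAGE reads with BWA 0.7.10-r789 and HISAT2 2.1.0, called peaks at 10 TPM, annotated them with ChIPseeker 1.32.0 and deposited tags scaled to the library total (TPM, the same unit as RPM). RNA-seq counts deposited by the authors were made with Trimmomatic 0.38 and HTSeq 2.0.1, and the FPKM deposited by the authors were computed with edgeR. Assemblies were galGal6, Coturnix_japonica_2.1, ZJU1.0 and bTaeGut2.pat.W.v2, and chromosome names came from the study's tables.

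The groups came from the labels. Values were 100% whole tags within 0.05 tag, so 1 tag sets the precision. limma 3.58.1 (R 4.3.3, mean-variance trend) was fitted per species on log2(TPM + 1), a pseudocount that shrinks changes of low genes, over all peaks. A member was called by its highest peak at an adjusted p under 0.05. edgeR 4.0.16 was run on recovered tags of quail and zebra finch, and scripts were tested on simulated data. Cultures of 1 embryo deviated together from the medium means (r of 0.40 to 0.75). No r was computed between cultures of different embryos, and a sex difference could also raise r, so the pairs rest on the labels.

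Named were the 5 highest members per species, members called by sex or medium (at most 5 a direction), all Z members, the 8 of widest percentile range and the 2 highest of each transport class. Members and lists were chosen with earlier results of these data known. Classes follow family numbers, and SLC66A1L was kept with the amino acid carriers. Python 3.11.15, pandas 2.3.3 and matplotlib 3.10.9 made tables and figures. Alternatives were TMM scaling, pseudocounts of 0.1 and 5, a mean of at least 10 TPM, 1 or summed peaks per gene, peaks within 3 kb of a start, covariates, embryo blocks, 1 value per embryo and each library left out.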

Additional observations from a re-analysis of the deposited data

Results flagged for a closer look

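Series of 4 cultures of 1 sex were taken for the 43 named genes in chicken females, quail females and duck males. Among these 101 series, 4 had 1 culture apart from the rest, or 3.96%. A chance rate of about 1 in 20 would hold for independent cultures, and these were pairs from the same embryos. SLC25A22 stood at 69.2 TPM in the high glucose culture of quail female embryo 1, against 101 to 104 TPM in the other 3 female cultures. SLC7A1 was at 8.92 TPM in the same culture, against 28.5 to 30.1 TPM. SLC12A4 was at 108 TPM in the high glucose culture of quail female embryo 3, against 95.7 to 96.7 TPM. SLC48A1 was at 75.7 TPM in the F12 culture of duck male embryo 3, against 77.6 to 78.0 TPM.

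Among the named genes, 8 had every male culture above every female culture in 1 species and below in another, and the difference between the species was not tested. Over all members there were 21 such genes. Of the 146 members, 33 had a row in 1 species only and could not count. The same count over all genes is not given here, so neither number can be set against it. SLC48A1 had a male minus female log2 of -0.82 in quail and 0.68 in duck. SLC39A13 had 0.48 in chicken against -0.67 in quail and -1.004 in zebra finch. SLC7A5 had 1.10 in quail against -0.86 in duck and -2.48 in zebra finch. The other 5 rest on the single zebra finch male, where 28.1% and 26.7% of all genes stood apart. SLC38A10 and SLC16A1 were higher in male in chicken (0.53 and 0.17) and lower in zebra finch (-0.88 and -1.64). SLC25A10 and SLC29A1 were lower in male in chicken (-1.07 and -0.88) and higher in zebra finch (0.36 and 0.51). SLC41A2 had 0.41 in duck and -0.91 in zebra finch.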

How the results depend on the processing

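Sex and embryo cannot be told apart, since 1 embryo stands for a sex in each species. In simulated data the limma fits recovered almost none of the planted changes in quail and zebra finch. Counts of 0 there thus say nothing about the absence of differences. In the same data, with cultures drawn as independent, 17 of 174 sex calls were false in chicken and 7 of 139 in duck. By medium 14 of 162 simulated calls were false in chicken and 7 of 93 in duck. No paired analysis of the sexes within an embryo exists; the embryo entered as a replicate block. Medium counts stayed at 0 members in all 3 species under every alternative, the fixed embryo block included, except that 0 to 2 quail members were higher in F12 without 1 library, the 2 being SLC16A1 and SLC16A3 without the male high glucose culture. Sex counts in chicken went from 1 and 1 to 0 and 0 with the embryo block, with medium as a covariate and with 1 value per embryo, and to 0 to 1 each without 1 library. Both chicken calls were lost without any 1 library other than the high glucose culture of female embryo 6, with adjusted p up to 0.395 for SLC38A10 and 0.288 for SLC25A10 (limma). In duck the 3 calls became 0 with 1 value per embryo and 1 to 4 without 1 library, the added one being SLC30A5 without the female F12 culture (adjusted p = 0.0154, limma; 0.219 without the female high glucose culture). SLC31A1 stayed called without any 1 library (adjusted p 0.0111 to 0.0221, limma), while SLC48A1 reached 0.0661 and SLC38A2 0.144 without the female high glucose culture, and 1 member, SLC37A3, was higher in female under TMM scaling. The embryo block gave quail 2 members higher in male and 1 in female instead of 0, which SLC48A1, SLC44A1 and SLC22A16 made up. Their SE were smaller with the block than without it.

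The Z median in chicken (0.48) was 0.37 with a mean of at least 10 TPM, 0.40 with a pseudocount of 5, and 0.42 to 0.50 without 1 library. In duck (0.55) it was 0.66, 0.45 and, under TMM, 0.42, and 0.29 to 0.77 without 1 library, lowest without the shallowest, the female high glucose culture. In quail (0.52) it was 0.67 with that filter, 0.43 under TMM and 0.37 to 0.67 without 1 library, and in zebra finch (0.31) 0.55 with that filter and 0.19 to 0.44 without 1 library. TMM scaling turned SLC25A46 to -0.049 in duck and -0.070 in quail. Without 1 library SLC25A46 ran from -0.063 to 0.22 in duck and -0.087 to 0.11 in quail, SLC12A2 in chicken from -0.36 to 0.082, and SLC49A3 in zebra finch from -1.29 to 0.023. Of the 10 highest members, RNA-seq FPKM kept 6 in quail, 5 in duck and 5 in zebra finch.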
